A study of Xenopus tropicalis with 16 samples.

Results

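The gastrula experiment comprised 6 of the 16 libraries of the series, chosen by their stage label (NF10 of the Nieuwkoop and Faber table). RNA came from Xenopus tropicalis animal caps (ACs), explants of prospective ectoderm that form larval epidermis in culture. There were 3 libraries from ACs of embryos injected with a control morpholino (CoMo, genotype control) and 3 from ACs injected with morpholinos against both SUV4-20H1 and SUV4-20H2 (Suv4-20H1/2 knockdown). A morpholino is an antisense oligomer, and these ones block translation of their target mRNA. The amount of a target transcript therefore does not report how well the knockdown worked. Each library was made from pooled explants, and the titles number the replicates from 1 to 3 in both groups. A CoMo and a knockdown library with the same number form a pair. No strain or further allele was given. The other 10 libraries came from neurula (NF16, 2 CoMo and 2 knockdown) and tailbud (NF24, 3 and 3) ACs.

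SUV4-20H enzymes convert H4K20me1, the monomethyl mark on a lysine of histone H4, to its di- and trimethyl forms. The monomethyl mark is the one that PR-SET7 places in dividing cells. Dimethylated H4K20 is among the most abundant histone modifications of vertebrate chromatin, whereas the trimethyl mark is known for heterochromatin and gene repression. At gastrula, animal cap cells still divide and the zygotic genome has only recently become active. Multiciliated, secretory and goblet cells of the epidermis differentiate later. The comparison at NF10 asks which transcripts respond to the knockdown morpholinos before that differentiation. How far the enzymes or their marks were reduced at NF10 was not measured in these libraries.

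Gene identity limited what could be described. The 14373 identifiers in the files come with no symbol, and 0 of them matched the RefSeq genes at hand, whose assembly (UCB_Xtro_10.0) is not that of the files. Marker genes of ectoderm, of other germ layers and of multiciliated cells were therefore not checked, nor were the target transcripts. Genes are described below by identifier, by level and by their behaviour in the other libraries. Of the 14373 genes, 11997 had a read in at least 12 of the 16 libraries and were tested. The 6 libraries held 13254827 to 28121447 fragments assigned to genes, and between 11920 and 12480 genes had at least 1 read.

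The replicate number dominated the differences among gastrula ACs. In log2 CPM (read counts scaled to a common library total), 82.0% of the sum of squares over all tested genes went with the replicate number, 7.08% with the morpholino and 10.9% with neither. These terms have 2, 1 and 2 degrees of freedom. Per degree of freedom the shares were 41.0%, 7.08% and 5.44%, so that of the morpholino was somewhat above the remainder. On a principal component analysis of the 6 libraries, the first component (49.2% of the variance) placed the libraries of pair 1 at -74.0 and -60.2 and those of pair 2 at 58.6 and 58.3. The second (33.3%) set pair 3 apart, at 56.8 and 62.5. The CoMo and knockdown library of a pair thus lay side by side on both. The third component (8.19%) separated the groups, with CoMo replicates 1, 2 and 3 at -6.48, -6.71 and -36.7 and the knockdowns at 7.93, 8.54 and 33.4, so that its spread came mainly from pair 3. Deviations from the group means correlated at r = 0.791, 0.806 and 0.692 within pairs 1, 2 and 3. These are correlations across genes, which are not independent replicates. What the replicate numbers stand for (a clutch, a day of injection, a batch of libraries) was not given, so these cannot be told apart.

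Pair 3 differed most between its own libraries. Over the 8662 genes with a mean of at least 5 CPM, the median absolute log2 ratio of knockdown to CoMo was 0.19 in pair 1, 0.153 in pair 2 and 0.285 in pair 3. In pair 3, 574 genes were at least 2 fold higher in the knockdown and 27 at least 2 fold lower. The corresponding counts were 138 and 25 in pair 1, and 26 and 21 in pair 2. Read categories moved with the pairs as well. Unmapped fragments made up 17.4% of CoMo replicate 3 and 23.2% of knockdown replicate 3, and fragments outside genes made up 22.6% and 25.2% of those mapped. CoMo replicate 3 held the lowest share of both kinds among the 6 libraries. In pair 1 the difference had the other sign, with 29.2% unmapped in CoMo and 24.4% in the knockdown. In pair 2 the libraries had 24.8% and 25.2% unmapped. The part of these shares in the gene ratios was not tested.

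To find the transcripts that respond to the knockdown, the groups were compared with the replicate number as a block in edgeR's quasi-likelihood test. Of 11997 genes, 0 (0% of those tested) passed an adjusted p of 0.05, and the smallest adjusted p was 0.183. At an unadjusted p under 0.05 there were 1143 genes (9.53%), 764 higher in the knockdown (6.37%) and 379 lower (3.16%). These genes are not calls. Without the block the test gave 0 genes as well, with 57 at an unadjusted p under 0.05. limma voom with the block called 0 genes, with 1345 at an unadjusted p under 0.05. DESeq2 with the block called 35 genes (0.4% of the 8740 genes to which it gave an adjusted p), 27 higher (0.309%) and 8 lower (0.0915%). Each of the 35 had the same direction in all 3 pairs, as did 33.2% of all genes tested. The fit drew on these same pairs, so this agreement is largely built in.

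The edgeR count depended on single pairs. Without pair 1 it was 339 of the 11997 genes, 328 higher and 11 lower, and 33 of the 35 DESeq2 genes were among them. Both fits used the libraries of pairs 2 and 3, so this overlap is largely built in. Without pair 2 and without pair 3 it was 3 genes in each case, 2 higher and 1 lower. A fit of 2 pairs has 1 residual degree of freedom per gene and draws on the spread shared by all genes.

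Although no gene passed, the intervals were narrow. The 95% interval of the log2 change lay between -1 and 1 for 8555 of the 11997 genes (71.3%) and for 8011 of the 8662 genes with at least 5 CPM (92.5%). For those genes a change of 2 fold or more lay outside the interval. The share followed the level of the gene. It was 96.9% at 100 CPM and over, 92.7% from 20 to 100 CPM, 85.0% from 5 to 20 CPM, 40.4% from 1 to 5 CPM and 0.2% under 1 CPM. Under 1 CPM the interval thus did not exclude a change of 2 fold for nearly every gene. The share says which changes were excluded, not which could have passed the test. Without the block 4382 genes had such an interval.

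**Figure D1:**
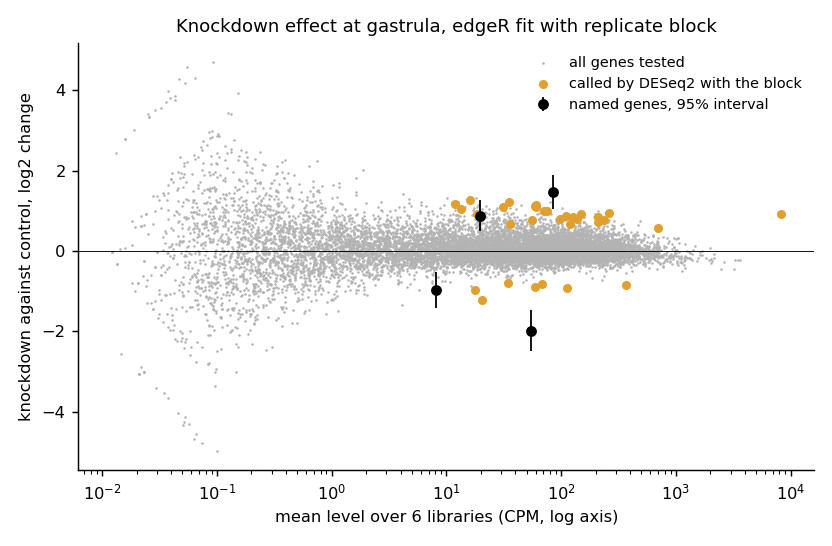
The log2 change of knockdown against control (vertical axis) is plotted against the mean level in CPM (horizontal log axis) for the 11997 genes tested, from the edgeR fit with the replicate block. Orange points are the 35 genes called by DESeq2 with the block, and black points with 95% intervals are the 4 named genes; the spread of grey points is widest under 1 CPM.

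Changes seen in all 3 pairs were then counted. Of the 11997 genes, 2059 (17.2%) were higher in the knockdown in every pair and 1925 (16%) were lower in every pair, which makes 3984 genes (33.2%) of one sign throughout. Agreement in sign over 3 pairs also arises without any effect, so this is not a count of responding genes. The share of such genes was higher at higher levels, from 22.3% under 1 CPM to 40.3% at 100 CPM and over. Higher and lower genes were close to balance, at 51.7% higher, and the order turned with the scaling: with DESeq2's size factors there were 1979 higher and 2048 lower genes.

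Changes of some size in every pair were few and mostly upwards. Among the 8662 genes with at least 5 CPM, 130 (1.5%) were at least 25% higher in the knockdown in all 3 pairs, and 72 (0.831%) were at least 25% higher in CoMo in all 3 pairs. At 1.5 fold the counts were 18 higher (0.208%) and 3 lower (0.0346%). At 2 fold they were 0 (0%) and 1 (0.0115%). The higher gene nearest to the 1.5 fold threshold had 1.5089 fold in its weakest pair, and the next gene outside had 1.4998. For lower genes the corresponding values were 1.6563 and 1.485. Agreement in only 2 pairs is a looser requirement, so its counts were larger mostly by construction. In pairs 2 and 3, 101 genes were at least 1.5 fold higher and 11 at least 1.5 fold lower. In pairs 1 and 3 the counts were 97 and 39, and in pairs 1 and 2 they were 24 and 17. Higher genes made up 90.2%, 71.3% and 58.5% of these 3 selections, against 85.7% with all 3 pairs. The excess of higher genes was thus smallest without pair 3.

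The 18 higher and 3 lower genes were chosen by their NF10 ratios, so those values describe them and are no test. The 18 higher genes had mean levels of 5.46 to 260 CPM and log2 changes of 0.66 to 1.47, with a median of 0.96. Their median pair ratios were 0.93 in pair 1, 0.74 in pair 2 and 1.15 in pair 3 on the log2 scale. The smallest of the 3 ratios fell in pair 2 for 12 of the 18 genes, and the largest in pair 3 for 9. For the 8662 genes with at least 5 CPM the corresponding counts were 3873 and 4533, so the pair 3 count was near that of those genes. The 3 lower genes had log2 changes of -1.98 to -0.97. In the edgeR fit the adjusted p of the 21 genes lay between 0.183 and 0.507, so none passed. DESeq2 with the block called 17 of the 21, against 0.4% of the 8740 genes to which it gave an adjusted p. It used the libraries by which the 21 were chosen, so this share is largely built in. All CoMo libraries were separated from all knockdown libraries in 6 of the 21, 4 higher and 2 lower. In the other 15 the groups overlapped, although each pair had the same direction. Groups that did not overlap were found for 244 higher (2.03%) and 203 lower genes (1.69%) among all 11997.

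**Figure D2:**
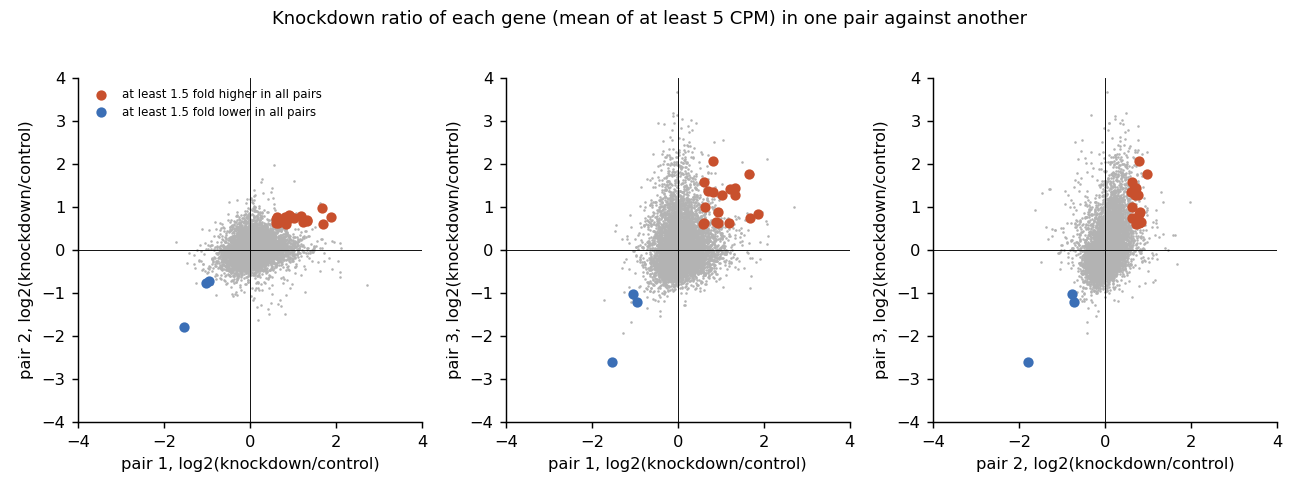
Each panel plots the log2 ratio of knockdown to control in one pair against that in another, for the 8662 genes with a mean of at least 5 CPM. Red points are the 18 genes at least 1.5 fold higher in all 3 pairs and blue points the 3 at least 1.5 fold lower; the vertical spread of grey points is widest for pair 3.

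The gene with the largest decrease common to all pairs was Xetrov90011188m.g. It stood at 81.5, 90.1 and 87.4 CPM in CoMo replicates 1, 2 and 3 and at 27.9, 26.1 and 14.3 CPM in the knockdowns of the same numbers. The CoMo libraries were close to each other, and each knockdown library lay far below all of them. The ratio was 2.92 fold in pair 1, 3.45 fold in pair 2 and 6.08 fold in pair 3. Its log2 change was -1.98 (approximate SE 0.22, 95% interval -2.48 to -1.48, unadjusted p = 1.53e-05 and adjusted p = 0.183 by edgeR). It was the one gene at least 2 fold lower in all 3 pairs. DESeq2 called it with the block (adjusted p = 3.61e-13) and also without it (adjusted p = 0.000671), and edgeR called it in each fit that left out one pair. Of 15 alternative settings 6 called it. limma voom with the block did not (adjusted p = 0.245), nor did edgeR without the block. The genes named here were chosen by their ratios in these libraries. Calls by settings that reuse the same libraries are therefore no separate support.

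The counterpart in the other direction was Xetrov90009682m.g. Its levels were 50.9, 56.0 and 31.2 CPM in CoMo replicates 1, 2 and 3 and 160.6, 109.7 and 106.2 CPM in the knockdowns. The lowest knockdown library was well above the highest CoMo library. The knockdown was 3.15, 1.96 and 3.4 fold higher in pairs 1, 2 and 3. The log2 change was 1.47 (approximate SE 0.18, 95% interval 1.05 to 1.88, adjusted p = 0.202 by edgeR). DESeq2 with the block called this gene too (adjusted p = 1.39e-08), and edgeR did so in each fit that left out one pair. Of 15 alternative settings 5 called it. DESeq2 without the block did not (adjusted p = 0.448), nor did edgeR without the block. These settings, too, reuse the libraries by which the gene was chosen.

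A smaller and more even difference was seen for Xetrov90018987m.g. It stood at 14.3, 11.2 and 15.8 CPM in CoMo and at 27.2, 19.5 and 29.4 CPM in the knockdown. The groups did not overlap, and replicate 2 was the lowest library of each. The pairs gave 1.90, 1.74 and 1.86 fold, the nearest to equal among the genes named here. The log2 change was 0.88 (approximate SE 0.17, adjusted p = 0.467 by edgeR), and DESeq2 with the block called it (adjusted p = 0.0108). That fit was the 1 of 15 alternative settings that called this gene.

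For Xetrov90023638m.g the pairs agreed in direction although the groups overlapped. Its levels were 14.2, 5.33 and 13.2 CPM in CoMo and 6.88, 3.09 and 6.4 CPM in the knockdown. CoMo replicate 2 lay below 2 of the knockdown libraries, so the groups overlapped. Within pairs the knockdown was 2.06, 1.70 and 2.05 fold lower. The log2 change was -0.97 (approximate SE 0.20, adjusted p = 0.507 by edgeR), and DESeq2 with the block did not call it (adjusted p = 0.0721). Of 15 alternative settings 0 called this gene. Fragments on the strand opposite to these 4 genes made up at most 0.672% of their stranded counts summed over the 6 libraries.

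**Figure D3:**
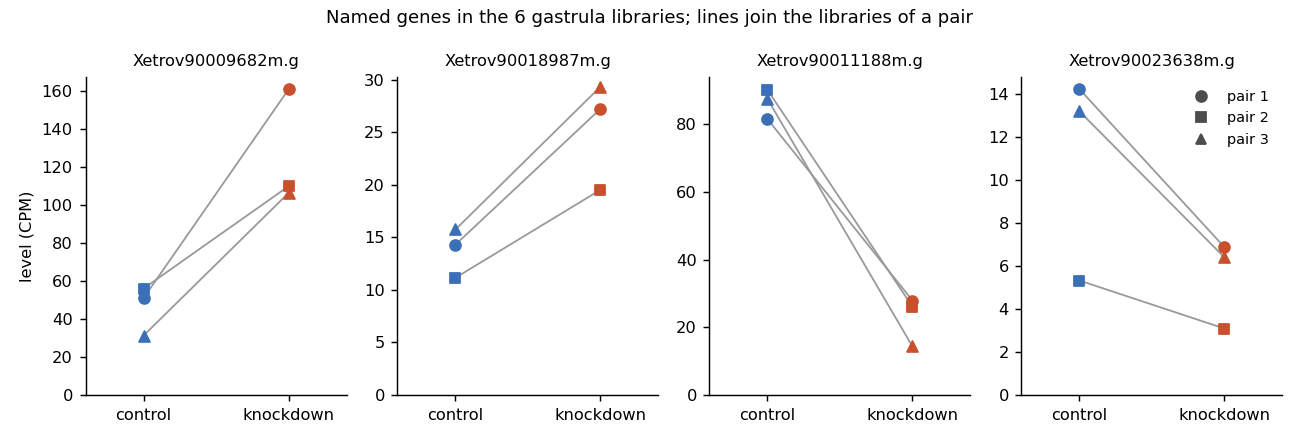
Levels in CPM of the 4 named genes are shown in the 3 control (blue) and 3 knockdown (red) libraries at NF10, with one panel per gene and lines joining the libraries of a pair. All lines of a panel slope the same way; the groups overlap only for Xetrov90023638m.g.

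Whether the gastrula changes lasted was examined in the NF16 and NF24 libraries, which share none with NF10. For this, levels were scaled over all 16 libraries, which lowers the NF10 values somewhat. At NF10 Xetrov90011188m.g stood on this scale at 73.9 ± 4.39 CPM in CoMo and 19.1 ± 6.75 CPM in the knockdown (SD, n = 3). At NF16 the knockdown libraries held 131 and 118 CPM against 155 and 177 CPM in CoMo. At NF24 they held 139, 131 and 101 CPM against 113, 101 and 98.8 CPM. The NF16 knockdowns still lay below the controls, whereas the NF24 groups overlapped. The log2 change was -0.42 at NF16 and 0.23 at NF24 (adjusted p = 0.321 and 0.695 by edgeR). The NF24 knockdown comparison called 0 of 11997 genes, so not passing there does not show that a gene lost its effect. Unmapped fragments made up 51.24%, 31.34% and 40.53% of NF24 knockdown replicates 1, 2 and 3, against 23.99%, 31.45% and 34.01% in CoMo. The paper reports that knockdown ACs dissociated at tailbud and that their profiles clustered heterogeneously. The part of either in the NF24 values was not tested. In a fit of all 16 libraries that pairs replicates inside every stage, the effect on Xetrov90011188m.g was 1.60 higher on the log2 scale at NF16 than at NF10 (adjusted p = 0.0139) and 2.25 higher at NF24 (adjusted p = 0.0418). Without the block the NF16 difference passed (adjusted p = 0.0423 by edgeR) and the NF24 difference did not (adjusted p = 0.129). Among the 11997 genes, 2165 passed for NF16 and 12 for NF24 with the block, and 500 and 0 without it. Whether replicate numbers pair the libraries at NF16 and NF24 was not tested.

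Xetrov90009682m.g kept its direction. At NF16 it stood at 117 and 132 CPM in the knockdown and at 74.9 and 72.5 CPM in CoMo, with no overlap. At NF24 the knockdown libraries held 105, 80.9 and 90.0 CPM and the CoMo libraries 80.1, 79.0 and 66.7 CPM. Its log2 changes there were 0.74 and 0.27 (adjusted p = 0.0933 and 0.644 by edgeR). The effect was smaller than at NF10 by 0.68 and 1.15 on the log2 scale, a difference that did not pass at either stage (adjusted p = 0.15 and 0.139, with the block). Xetrov90018987m.g was lower in the NF16 knockdown, at 6.66 and 6.03 CPM against 9.94 and 9.24 CPM in CoMo, a difference that did not pass (log2 change -0.60, adjusted p = 0.292 by edgeR). Its effect at NF16 lay 1.44 below that at NF10 on the log2 scale (adjusted p = 0.014 with the block, 0.0573 without). At NF24 the groups of this gene overlapped (log2 change -0.02, adjusted p = 0.983 by edgeR). Xetrov90023638m.g overlapped at NF16, with 8.48 and 14.5 CPM in the knockdown and 16.3 and 12.5 CPM in CoMo (log2 change -0.34, adjusted p = 0.577 by edgeR). The groups of this gene did not overlap at NF24, where the knockdown libraries held 11.9, 26.4 and 17.4 CPM and the CoMo libraries 37.0, 47.0 and 31.6 CPM (log2 change -1.07, adjusted p = 0.386 by edgeR). These genes were chosen for their NF10 values, so part of any decline of their effect in other libraries is built in. Their NF24 adjusted p values come from the comparison in which 0 of the 11997 genes passed.

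**Figure D4:**
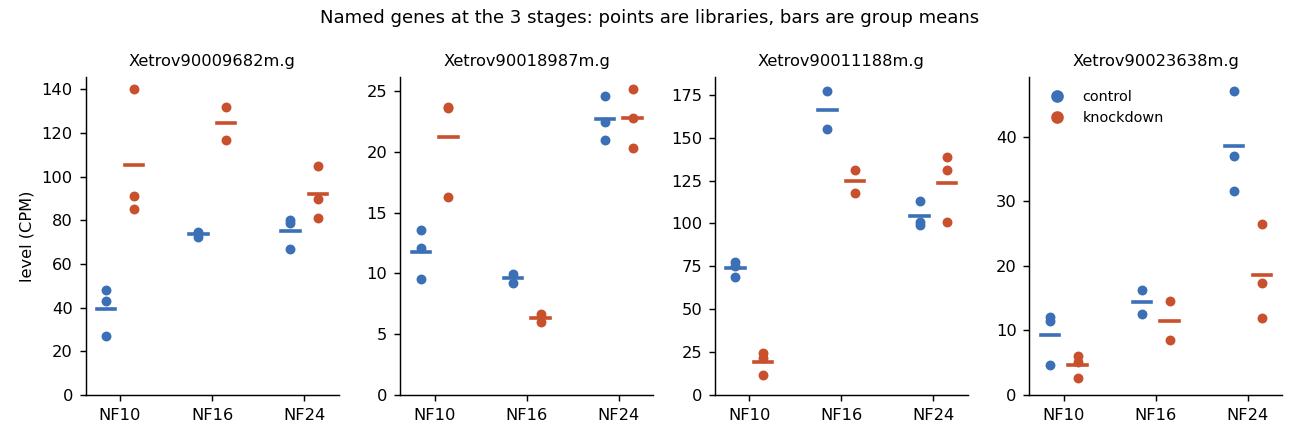
Levels in CPM (scaled over all 16 libraries) of the 4 named genes at the 3 stages, with points for libraries and bars for group means of control (blue) and knockdown (red). Xetrov90011188m.g is separated at NF10 and NF16 and overlaps at NF24, and Xetrov90009682m.g has its knockdown points above its control points at each stage.

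The larger groups were followed in the same way. Of the 18 genes at least 1.5 fold higher at NF10, 13 (72.2%) were also higher in the NF16 knockdown, where 57.0% of the 8662 genes with at least 5 CPM and 51% of all 11997 were higher. At NF24 the numbers were 13 (72.2%) against 45.7% and 47.6%. Both later stages had the NF10 direction for 12 of the 18. Their median log2 change was 0.73 at NF16 and 0.29 at NF24, against 0.16 and -0.04 for the 8662 genes. At NF16 4 of the 18 (22.2%) passed an adjusted p of 0.05, 3 higher and 1 lower, which is near the 19.1% of the 8662 genes that did. Of the 8662 genes 909 were called higher and 745 lower at that stage. Over all 11997 genes 7.97% were called higher and 12.9% lower. The 3 lower genes had a median of -0.34 at NF16, where each was below 0. At NF16 49% of all 11997 genes were below 0, and 57.0% of the 8662 genes were above it. At NF24 the median of the 3 was 0.08, and 1 of the 3 was below 0. At that stage 52.4% of all 11997 genes were below 0, and 45.7% of the 8662 genes were above it. Without knockdown replicate 1 of NF16 the median of the 3 was -0.12. The NF24 median of the 18 was 0.18 without knockdown replicate 1, 0.18 without CoMo replicate 1 and 0.52 without CoMo replicate 3 of that stage.

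Of the 130 genes at least 25% higher in the knockdown, 83 (63.8%) were higher at NF16 and 77 (59.2%) at NF24. Of the 8662 genes 57.0% and 45.7% were, so the NF16 share was near that of the 8662 genes. Of the 72 at least 25% higher in CoMo, 48 (66.7%) were lower at NF16 and 37 (51.4%) at NF24. The share of the 72 that was higher was 33.3% and 48.6%, against 57.0% and 45.7% of the 8662 genes. At NF24 the 72 were thus lower no more often than those genes. Medians of the 130 were 0.36 and 0.08, and medians of the 72 were -0.33 and -0.03. In the opposite view, 956 genes called higher at NF16 had median NF10 ratios of 0.03, 0.05 and 0.08 in pairs 1, 2 and 3. For all tested genes these were 0.03, -0.001 and -0.013. Of the 956, 24.8% were higher in all 3 pairs (17.2% of all tested genes). The 1549 genes called lower at NF16 had medians of 0.04, -0.0049 and -0.04, and 14.4% of them were lower in all 3 pairs (16% of all). All tested genes are not matched to these sets in level, with which the share of one sign rises. At least 5 CPM was reached by 909 of the 956 genes and 745 of the 1549. Among the 8662 genes at that level, 1608 were higher and 1590 lower in all 3 pairs.

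**Figure D5:**
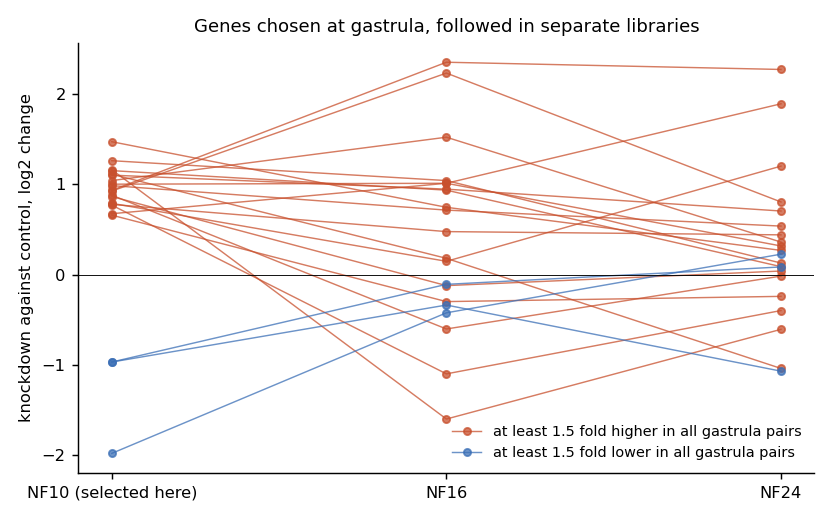
Lines follow the log2 change of knockdown against control from NF10, where the genes were selected, to NF16 and NF24 for the 18 genes at least 1.5 fold higher (red) and the 3 at least 1.5 fold lower (blue) in all NF10 pairs. At NF16 13 red lines lie above 0 and all 3 blue lines below 0; at NF24 13 red lines lie above 0.

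The gastrula changes were also set against normal development, using the change from NF16 to NF24 in CoMo libraries. No NF10 library enters it, but the NF16 CoMo libraries also enter the NF16 knockdown comparison. Of the 8662 genes with at least 5 CPM, 46.4% were higher in NF24 than in NF16 controls. Of the 130 genes at least 25% higher in the gastrula knockdown, 97 were (74.6%), with a median control change of 0.43 on the log2 scale. Of the 72 at least 25% higher in gastrula CoMo, 14 were (19.4%), with a median of -0.64. The 8 genes that DESeq2 called lower were all lower in NF24 than in NF16 controls, and 19 of its 27 higher genes were higher. Across the 8662 genes the pair ratios correlated with this control change at r = 0.099, 0.17 and 0.27 in pairs 1, 2 and 3. For the earlier interval, from the CoMo libraries of the other NF10 pairs to NF16 CoMo, the corresponding values were -0.29, -0.016 and 0.11. The relation was thus near 0 in pair 2 and of opposite sign in pair 1 over the interval that follows gastrula. These are descriptions across genes that share libraries.

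Pairs 2 and 3 were more alike than either was with pair 1. Pair ratios correlated across the 8662 genes at r = 0.362 between pairs 2 and 3, at 0.159 between pairs 1 and 2, and at 0.107 between pairs 1 and 3. The 328 genes called higher by edgeR without pair 1 had median log2 ratios of 0.44 in pair 2 and 1.52 in pair 3, and of 0.08 in pair 1, where 60.4% of them were above 0 (54.3% of the 8662 genes). The values of pairs 2 and 3 chose these genes. They include 14 of the 18 genes at least 1.5 fold higher in all 3 pairs and 25 of the 27 that DESeq2 called higher. Of the 8662 genes, 327 were called in that fit, and these selections share the libraries of pairs 2 and 3. The highest ratio among the 328 in pair 1 was 1.87. In pair 3 the ratio was the largest of the 3 for 295 of the 328 (4533 of the 8662 genes). In the separate NF16 libraries 85.1% of the 328 were higher in the knockdown (57.0% of the 8662 genes), with a median of 0.80. At NF24 60.4% were (45.7% of the 8662 genes), with a median of 0.11. In controls 84.8% of the 328 were higher at NF24 than at NF16 (46.4% of the 8662 genes). The NF16 CoMo libraries enter this share and the NF16 knockdown share alike, so these are not separate observations. Technical differences were found in pairs 1 and 3. The unmapped share of the knockdown minus that of CoMo was -4.81 percentage points in pair 1, 0.43 in pair 2 and 5.79 in pair 3. The knockdown library held 1.819 times the assigned fragments of its CoMo library in pair 1, 0.873 times in pair 2 and 1.059 times in pair 3. The part of these differences in the ratios was not tested. In bulk ACs, fewer cells of a type and less RNA per cell cannot be told apart.

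The overall developmental position of the libraries showed no common shift. Each library was projected on the line from the CoMo libraries of the other NF10 pairs (0) to the mean NF24 CoMo library (1), so that both libraries of a pair had the same origin. In pair 1 the CoMo library had position 0.0712 and the knockdown 0.0521. In pair 2 these were 0.0757 and 0.0789, and in pair 3 they were -0.0225 and 0.00506. The knockdown minus CoMo difference was -0.0192 in pair 1, 0.00317 in pair 2 and 0.0276 in pair 3. The mean was 0.00387 ± 0.0234 (SD of 3 pairs; exact two-sided sign-flip permutation p = 0.75, where 3 pairs allow no p below 0.25). The pairs thus differed in sign, and the mean difference was smaller than the spread between them.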

How the data were processed

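Per the labels, libraries kept strand and were made after removal of DNA and rRNA. The authors mapped read pairs with STAR (version 2.4.2a in the submitters' processing notes) to the X. tropicalis genome of Xenbase and deposited raw counts of fragments per gene from the same run. The multimapping tally is 0 in each library, so genes with near-identical copies may be undercounted. Whether fragments that map to several places were counted as unmapped was not given, so the unmapped shares may include them. The strand column with the larger total was used. The main test was edgeR 4.0.16 (R 4.3.3) with TMM factors, the replicate number as a block and Benjamini-Hochberg adjustment over 11997 genes (a read in 75% of libraries). The block was used because the comparison was defined as paired by replicate number. As a check, deviations correlated above 0.1 in each same-numbered pair. SE was approximated as the change over the square root of F. Pair ratios used log2 CPM with a prior count of 2. NF16 and NF24 were fitted without a block. The paper calls the replicates biological, but nothing states that they are separate clutches, so p-values measure only the spread between these libraries. No library repeats another: chi-square over degrees of freedom was at least 20.3 between any of the 6. Named genes were the 2 each way with the largest weakest-pair ratio, at 5 CPM or more, one sign in 3 pairs and unadjusted p under 0.05, since none passed adjusted; 2 each way because no symbols matched. Alternatives were other scalings, filters, strand columns, folds, levels, DESeq2 1.42.0, limma 3.58.1 voom, no block and each pair left out. The origin of the position measure was set, so that both libraries of a pair share it, after a first version had been seen. The genes on which pairs 2 and 3 were alike and the relation to control development were examined after the data had been seen. The code was tested on simulated data. Comparisons and gene groups were chosen with earlier results of these data known.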

Additional observations from a re-analysis of the deposited data

Results flagged for a closer look

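In a fit of all 16 libraries that pairs replicates inside every stage (replicate block), the knockdown effect on 2 named genes differed between stages. For Xetrov90011188m.g the effect was higher than at NF10 by 1.60 on the log2 scale at NF16 and by 2.25 at NF24 (adjusted p = 0.0139 and 0.0418 by edgeR), where its own changes at NF10, NF16 and NF24 were -1.98, -0.42 and 0.23. Without the block these differences had adjusted p = 0.0423 and 0.129. For Xetrov90018987m.g the difference between NF16 and NF10 was -1.44 (adjusted p = 0.014 with the block and 0.0573 without), with changes of 0.88 at NF10 and -0.60 at NF16. Whether replicate numbers pair the libraries at NF16 and NF24 was not tested. Such differences were not particular to these genes at NF16. Among the 11997 genes, 2165 passed for NF16 and 12 for NF24 with the block, and 500 and 0 without it. Both genes were selected for consistent changes at NF10, so part of the difference is built in. Groups of 3 libraries are too small to be screened for single deviating libraries.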

How the results depend on the processing

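The results were recomputed under 165 alternative values, of which 124 kept their side of the threshold, a count within a factor of 1.5, or a value inside the replicate SD; 29 moved, 12 newly passed a threshold and 0 reversed. The cause of the changes was not tested. Genes called: with no filter 2, DESeq2 with replicate block 35, DESeq2 with no replicate block 1, and 3 to 339 with one pair left out, against 0. Genes at unadjusted p under 0.05: with no replicate block 57, in DESeq2 with no replicate block 112, and 453 with all 16 libraries and the block within stage, against 1143 (800 to 1524 with one pair left out). Intervals within 2 fold: 4382 genes with no replicate block, against 8555 (7326 to 8663 with one pair left out). Genes alike in all 3 pairs, 18 higher and 3 lower: at 25% 130 and 72, at 2 fold 0 and 1, at 1 CPM or more 30 and 10, and 2 and 1 when every knockdown library had to exceed every control by 1.5 fold without pairing. With one pair left out, which is a looser requirement, 24 to 101 were higher and 11 to 39 lower. The NF16 median of the 18 genes, 0.73, was 0.88 with total counts only, 0.36 at 25% (added after the data were seen) and 0.51 to 0.71 with one NF16 library left out. For the 3 lower genes it was -0.36 to -0.12, and the NF24 median of the 18 was 0.18 to 0.52, with one library of that stage left out. The NF24 median of the 3 lower genes lay between -0.13 and 0.25. Position differences ranged from -0.00818 to 0.016 with one pair left out, against 0.00387; with the axis ending at NF16 the difference was -0.00689, with no p under 0.05 possible from 3 pairs. No named gene changed direction in its 15 alternatives. A single library left out of a blocked fit leaves its partner without information, so pairs were left out whole; with 2 pairs the spread of each gene leans on that of all genes. Below 1 CPM depth limits the tests, and the count intervals cover these libraries only.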
